A study of Mus musculus with 5 samples.

Results

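The genes described here are the axon guidance ligands and receptors of the mouse. They were taken by gene name, as the semaphorins, plexins, Eph receptors, ephrins, Slits, Robos, netrins, Unc5 receptors and Dcc on the array. The naming rule used no measured values, though the genes were chosen with earlier results of these data known. The rule found 90 probes for 69 genes, out of 55681 probes and 21982 named genes on the array. By spelling it also took Unc50 and Unc5cl, which are not netrin receptors and are counted apart from the families. Both remain in the total of 69 and in the promoter shares below, and Unc50 also in the 62 genes tested.

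The study asked how closely neural progenitor cells made with chemicals resemble progenitors from the brain. Its title names chemical cocktails and hypoxia as the means of conversion. RNA was measured on 5 one-colour arrays. Chemically induced neural progenitor cells (ciNPC) gave 3 of them, 2 at passage 13 (p13) and 1 at passage 5 (p5), brain-derived neural progenitor cells (NPC), the control progenitors, gave 1, and mouse embryonic fibroblasts (MEF) gave 1. The labels give no mouse strain, genotype or age, and do not say whether the ciNPC arrays came from separate cultures. All p-values below therefore measure only the spread between these ciNPC arrays, which may be technical.

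Guidance genes are the cues and sensors that steer growing axons and migrating cells. Semaphorins act through plexins, often with a neuropilin as co-receptor, Slits act through Robo receptors, and netrins through Dcc and Unc5 receptors. Ephrins stay on the cell surface and bind Eph receptor tyrosine kinases, with signals running into both cells. Neural progenitors use several of these pairs in positioning and renewal, and fibroblasts and other mesenchymal cells express many of the same genes.

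Values are log2 intensities scaled to the array, so that 0 is the 75th percentile of its probes and a step of 1 is a doubling of brightness. A gene stands at its probe with the highest mean, and levels of different genes are not compared, since each probe has its own response. Between 47.9% and 57.6% of spots were well above background, and the slope of the spike-in controls lay between 0.803 and 0.987, lowest on the second p13 array. The ciNPC arrays shared 1 slide and scan, and NPC and MEF shared the other, so slide and cell type cannot be told apart in either comparison with ciNPC. Of the 69 genes, 50 (72.5%) were well above background on all 5 arrays. The other 19 include 7 that were above background on no array and were not tested, namely Epha6, Epha8, Epha10, Robo4, Sema4f, Unc5cl and Unc5d. The remaining 12 were tested through the cell types in which they were bright, so counts below are over the 62 tested and not over all 69. A difference was called at an adjusted p under 0.05 (limma, Benjamini-Hochberg over 16229 genes) and at least 2-fold. MEF and NPC had 1 array each, so the error of every difference comes from the ciNPC arrays.

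In ciNPC, guidance genes differed from MEF in both directions. Of the 62 tested, 11 (17.7%) were higher than in MEF, beside 15.3% of all genes tested, and 20 (32.3%) were lower, beside 15.3% of all genes. In all, 31 (50%) were called, beside 30.6%. The median difference was -0.13 over the 62 genes and -0.09 over all genes. The split moved with the scaling and with the choice of probe. With the deposited quantile-normalised values, 14 were higher and 15 lower. With the percentile taken over probes detected on every array, 14 were higher and 16 lower. With the mean of all probes of a gene, 13 were higher and 14 lower. A different background correction gave 9 higher and 16 lower. Shares of all genes are not given for these alternatives, so the excess of lower genes over all genes is stated for the main fit only. Among the 34 ligands tested 6 were higher and 11 lower, and among the 27 receptors 5 were higher and 9 lower.

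Against NPC, 8 of the 62 genes (12.9%) were higher in ciNPC, beside 4.79% of all genes, and 0 were lower, beside 0.0863% of all genes (limma). At an unadjusted p under 0.05, 19 of the 62 (30.6%) differed from NPC, beside 18.1% of all genes. Taking both directions, 4.88% of all genes were called against NPC. All 8 that were higher than NPC were also lower than MEF (both differences use the same ciNPC arrays): Slit2, Slit3, Sema3f, Epha1, Epha3, Efna5, Unc5b and Unc5c. Over the whole array, 558 of the 778 genes higher than NPC were also lower than MEF, which is 3.44% of all genes tested. Among guidance genes 0 were called above both cell types, beside 0.203% of all genes, and 0 below both, beside 0.0123%. The 31 genes called against MEF thus fell into 11 that were higher than MEF and not called against NPC, beside 15.1% of all genes, 8 that lay between the cell types, and 12 that were lower than MEF and not called against NPC, beside 11.8%.

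**Figure D1:**
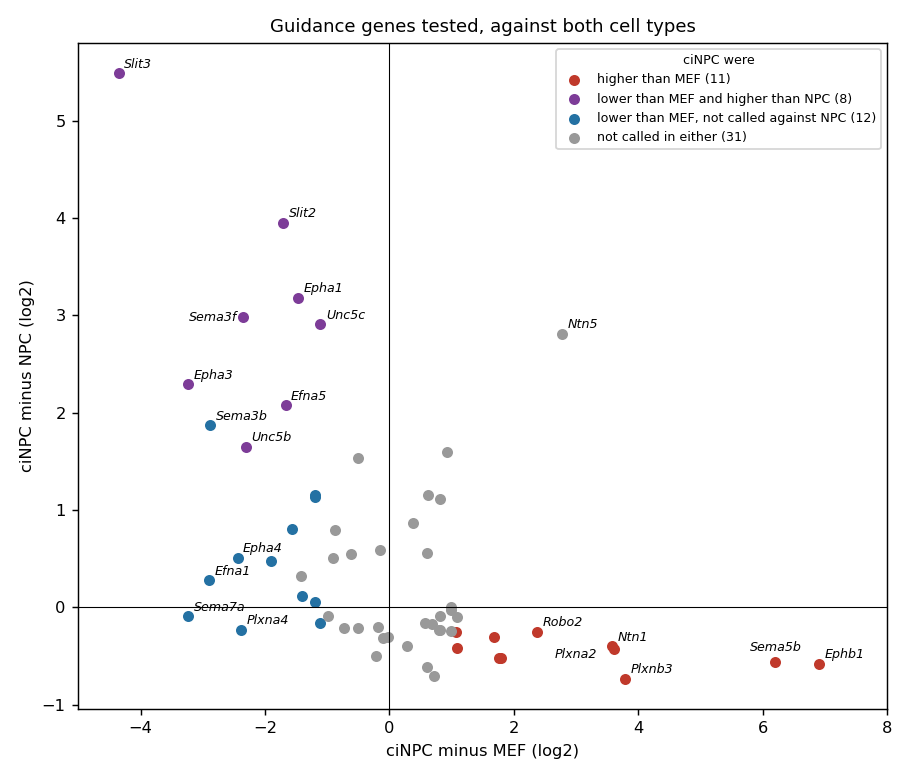
Each point is 1 of the 62 guidance genes tested. The horizontal axis gives the log2 difference of ciNPC from MEF and the vertical axis that from NPC. The 11 genes higher than MEF lie at or just under 0 on the vertical axis, between -0.73 and -0.25, and the 8 genes between the cell types lie at upper left, among them Slit2 at -1.71 and 3.95. The vertical positions of Slit3, Epha1 and Unc5c and the horizontal ones of Ephb1 and Sema5b rest on spots not well above background, so they bound no fold.

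By family, the calls against MEF were spread over all 10 families. Semaphorins had 4 higher and 5 lower of 19 tested, and plexins 2 higher and 1 lower of 9. Among EphA receptors, at their representing probes, 0 were higher and 4 lower of 6, with a family median of -1.33. Of these 4, Epha1 lost its call in 4 of 10 alternatives and Epha7 in 7 of 11. Another probe of Epha5 was higher than in MEF, by 7.33. Among EphB receptors 1 was higher and 1 lower of 5. The ephrin-A ligands had 0 higher and 2 lower of 5, and the ephrin-B ligands 1 higher and 2 lower of 3. Of 3 Slits, 2 were lower, and of 3 Robos and 4 netrins 1 each was higher. The netrin receptors had 1 higher and 3 lower of 4. Of the 3 lower, Dcc was called at a probe placed on another chromosome, and Unc5c lost its call in 8 of 10 alternatives. Against NPC the calls were 2 Slits, 2 EphA receptors, 2 netrin receptors, 1 semaphorin and 1 ephrin-A, while plexins, EphB receptors, ephrin-B ligands, Robos and netrins had 0.

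**Figure D2:**
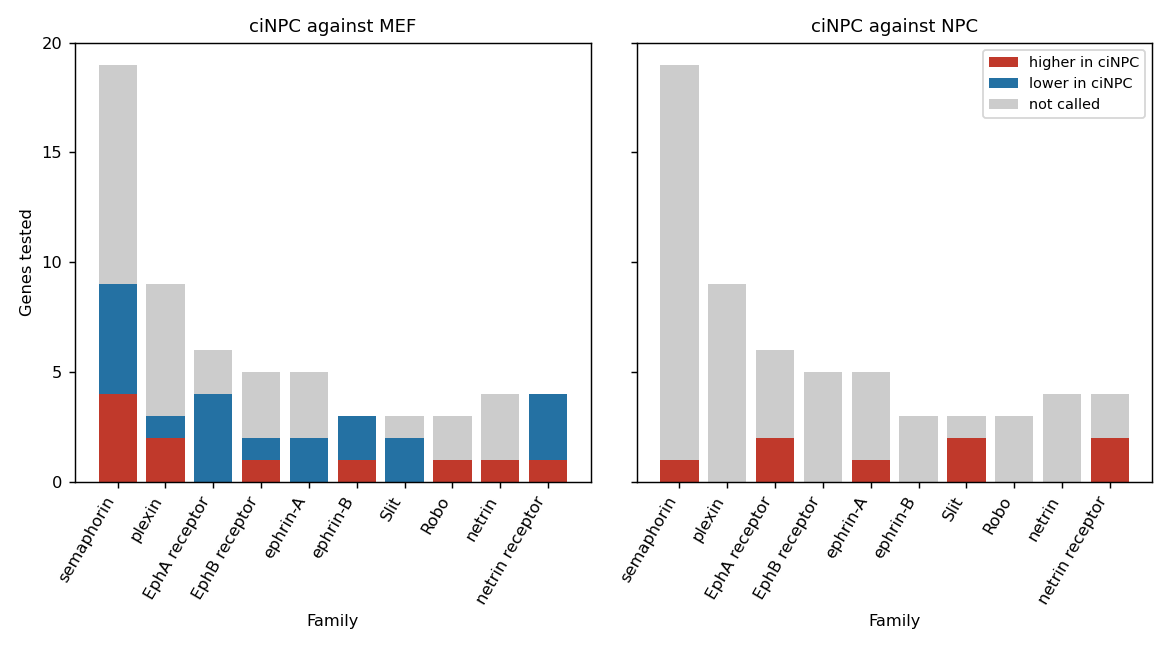
The bars count the genes tested in each family (vertical axis), with ciNPC against MEF on the left and ciNPC against NPC on the right. Red marks genes higher in ciNPC, blue those lower and grey those not called. Blue is absent on the right, where 8 genes were higher in ciNPC than in NPC and 0 were lower.

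The promoters of 6 genes that head the groups just described are shown because the genes of each group took the same position across the arrays. Of the genes that RefSeq's table lists, they are the first 3 by fitted difference among those higher than MEF, and the first 3 by fitted difference from NPC among those between the cell types. For Ephb1, Sema5b, Slit3 and Epha1 that difference is against a spot not well above background, so the choice ranks no gene over another. Each runs from 250 bases before to 50 bases after the start of the gene, 5′ to 3′, from RefSeq on GRCm38.p6, and CG dinucleotides are in capitals.
Ephb1 (chr9:102354644-102354943, minus strand): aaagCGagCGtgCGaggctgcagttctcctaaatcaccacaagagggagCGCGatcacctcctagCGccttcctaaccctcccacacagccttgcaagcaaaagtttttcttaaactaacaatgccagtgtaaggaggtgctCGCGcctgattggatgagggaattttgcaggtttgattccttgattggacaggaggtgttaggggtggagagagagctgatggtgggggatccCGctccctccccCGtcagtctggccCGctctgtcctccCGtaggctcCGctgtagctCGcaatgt
Sema5b (chr16:35541112-35541411, plus strand): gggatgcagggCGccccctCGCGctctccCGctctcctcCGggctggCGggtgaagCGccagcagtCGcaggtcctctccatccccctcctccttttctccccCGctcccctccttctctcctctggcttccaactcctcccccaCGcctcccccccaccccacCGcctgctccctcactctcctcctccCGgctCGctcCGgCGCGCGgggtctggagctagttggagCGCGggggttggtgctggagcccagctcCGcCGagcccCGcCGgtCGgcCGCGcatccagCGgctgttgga
Plxnb3 (chrX:73756853-73757152, plus strand): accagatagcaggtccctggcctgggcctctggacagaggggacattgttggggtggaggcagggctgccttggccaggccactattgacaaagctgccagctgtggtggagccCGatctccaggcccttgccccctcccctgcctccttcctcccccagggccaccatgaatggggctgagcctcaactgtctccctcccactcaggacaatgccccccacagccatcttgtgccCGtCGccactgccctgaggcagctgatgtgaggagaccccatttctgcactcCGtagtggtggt
Slit3 (chr11:35121206-35121505, plus strand): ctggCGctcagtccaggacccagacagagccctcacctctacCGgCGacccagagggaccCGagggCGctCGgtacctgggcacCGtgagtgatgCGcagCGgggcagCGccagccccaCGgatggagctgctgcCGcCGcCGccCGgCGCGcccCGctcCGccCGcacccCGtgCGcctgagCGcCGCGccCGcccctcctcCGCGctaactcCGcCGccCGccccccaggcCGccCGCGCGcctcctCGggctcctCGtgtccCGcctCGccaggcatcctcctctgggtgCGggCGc
Slit2 (chr5:47982905-47983204, plus strand): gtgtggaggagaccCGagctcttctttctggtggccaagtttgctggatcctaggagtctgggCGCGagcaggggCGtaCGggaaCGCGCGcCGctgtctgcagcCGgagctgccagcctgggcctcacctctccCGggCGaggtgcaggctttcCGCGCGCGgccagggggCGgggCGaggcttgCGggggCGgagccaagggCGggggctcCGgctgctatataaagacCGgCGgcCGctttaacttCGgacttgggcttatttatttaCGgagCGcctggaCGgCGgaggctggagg
Epha1 (chr6:42373219-42373518, minus strand): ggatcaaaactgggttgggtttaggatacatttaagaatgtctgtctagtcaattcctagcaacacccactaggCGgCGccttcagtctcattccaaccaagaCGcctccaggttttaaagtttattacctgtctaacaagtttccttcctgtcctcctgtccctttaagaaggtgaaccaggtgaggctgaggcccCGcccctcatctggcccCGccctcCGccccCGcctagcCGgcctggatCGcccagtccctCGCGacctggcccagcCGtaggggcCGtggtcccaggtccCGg

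These windows held very different numbers of CG dinucleotides: 14 for Ephb1, 27 for Sema5b, 4 for Plxnb3, 41 for Slit3, 30 for Slit2 and 14 for Epha1. The table listed promoters for 59 of the 69 genes, 12 of them more than once. The median count was 22 for promoters of genes higher than MEF, 30 for genes between the cell types, 23 for the other genes lower than MEF, 19 for all guidance genes and 7 for all 32851 promoters. The letters GGGCGG, the core of the Sp1 motif, stood on either strand in 70.7% of guidance gene promoters and 35.7% of all promoters, and in the windows of Slit3, Slit2 and Epha1 shown here. The E-box letters CANNTG were in 52.0% against 72.3%, and the narrower CAGCTG, which every CANNTG search also finds, in 16.0% against 16.3%. The Sox-type letters ACAAAG were in 14.7% against 18.7%, and TATAAA in 2.67% against 13.6%. Of the 6 shown, Slit2 held TATAAA, and Plxnb3 held CAGCTG and ACAAAG. The median GC content was 64.3% for guidance gene promoters and 52.7% for all promoters, and its part in these shares was not tested. These matches describe the letters in these windows only.

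Among the semaphorins, the gene with the widest gap from MEF was Sema5b, a transmembrane semaphorin known as a repulsive cue in the developing nervous system (probe at chr16:35664281-35664340, mm9). It read 1.34 and 1.56 on the p13 arrays and 1.07 on the p5 array, against 1.89 in NPC and -4.88 in MEF, where it was not well above background. All 3 ciNPC arrays thus stood close under NPC. The difference from MEF was 6.20 (SE 0.24, adjusted p = 1.12e-05, limma), or at least 49.1-fold. Such a bound sets the mean of the brighter group against the lowest signal that the array measured above background. A separate probe for Sema5b differed by 6.17, or at least 24.6-fold.

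The class 4 semaphorins, which are transmembrane proteins, several of them ligands of B-type plexins, gave a pair of calls. Sema4b read 1.18, 1.02 and 0.29 on the p13 and p5 arrays, against 1.35 in NPC and -0.96 in MEF, a difference of 1.79 from MEF (SE 0.34, adjusted p = 0.00542). Sema4c, a ligand of plexin-B2, read 5.78, 5.80 and 5.52, against 5.95 in NPC and 4.63 in MEF, a difference of 1.07 (SE 0.15, adjusted p = 0.00139). Sema4d, the classical ligand of plexin-B1, differed from MEF by 1.09 and was not called (adjusted p = 0.0764). Sema4a and Sema4g were not called either, at -0.19 and 0.82.

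Class 6 semaphorins are transmembrane ligands of A-type plexins. Sema6a read 0.76, 0.63 and 1.22 on the p13 and p5 arrays, against 1.29 in NPC and -0.20 in MEF, a difference of 1.08 from MEF (SE 0.26, adjusted p = 0.0133). Its call was lost with the p5 array left out, at 0.90. In the other direction, Sema6c read -0.95, -0.62 and -1.23, against -0.99 in NPC and 0.27 in MEF, and differed by -1.20 (SE 0.30, adjusted p = 0.0155). Sema6d came just short of the fold threshold at 0.99 (adjusted p = 0.00432), while Sema6b, at 0.82, was not called. Sema6d was called at 1.09 both without the p5 array and in the deposited quantile-normalised table. It was also called at 1.12 with the percentile taken over probes detected on every array, and at 2.15 with the mean of its probes.

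Class 3 semaphorins are secreted and bind neuropilins. Sema3f, a repellent that acts through neuropilin-2 (probe at chr9:107583833-107583892, mm9), read 1.46 and 1.44 on the p13 arrays and 1.48 on the p5 array, against -1.52 in NPC and 3.81 in MEF. The ciNPC arrays lay within 0.04 of one another and between the other cells. Sema3f was lower than in MEF by a log2 difference of -2.35 (SE 0.15, adjusted p = 6.17e-05) and higher than in NPC by 2.98 (SE 0.15, adjusted p = 5.11e-05), or 7.91-fold. Sema3b, whose gene lies near Sema3f on chromosome 9, read -2.16, -1.14 and -1.82, against -3.57 in NPC and 1.17 in MEF. It was lower than in MEF, at -2.88 (SE 0.44, adjusted p = 0.00196), and its value of 1.87 over NPC missed the threshold (SE 0.44, adjusted p = 0.0702). Sema3b was called against NPC with any 1 ciNPC array left out, at 2.09 without the first p13 array, 1.59 without the second and 1.92 without p5. The other class 3 genes were not called: Sema3a differed from MEF by 0.61, Sema3c by -0.15, Sema3d by 0.62, Sema3e by -0.50 and Sema3g by -1.42, and the last 3 were above background on 3 arrays or fewer. Sema3e was called against NPC, at 1.98, without the second p13 array, and not with it (1.53).

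Sema7a, a membrane-anchored semaphorin that binds plexin-C1 and integrins, read -1.32, -1.85 and -1.72 in the p13 and p5 ciNPC, against -1.54 in NPC and 1.60 in MEF. It had the lowest difference from MEF of the semaphorins, at -3.23 (SE 0.30, adjusted p = 0.000269), and differed from NPC by -0.09. Sema5a, which binds plexin-B3, read 0.12, -0.70 and -0.01, against -1.34 in NPC and 1.01 in MEF. Its difference from MEF was -1.20 (SE 0.34, adjusted p = 0.026) and that from NPC 1.15 (adjusted p = 0.146). The call against MEF was lost at -0.95 with the second p13 array left out, and Sema5a was then called against NPC at 1.40, as it was at 1.05 without p5.

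Of the plexins, which carry the semaphorin signal into the cell, Plxna2 and Plxnb3 were higher than in MEF. Plxna2, a receptor for class 6 semaphorins (probe at chr1:196642958-196643017, mm9), read 2.68 and 2.77 on the p13 arrays and 2.94 on the p5 array, against 3.23 in NPC and -0.82 in MEF, 12.2-fold over MEF (3.61, SE 0.16, adjusted p = 1.71e-05). Plxnb3, the receptor of Sema5a (probe at chrX:71017572-71017631, mm9), read -0.25, 0.39 and 0.48, against 0.93 in NPC and -3.58 in MEF, 13.8-fold over MEF (3.79, SE 0.33, adjusted p = 0.000201). Both stood a little under NPC on every ciNPC array. Plxna4, a class 3 semaphorin receptor on sensory and sympathetic axons, went the other way. It read -0.58, -0.31 and -0.47, against -0.22 in NPC and 1.93 in MEF, a difference of -2.38 from MEF (SE 0.21, adjusted p = 0.0002). Its other probe was above background on no array. The remaining plexins were not called against MEF: Plxna1 at -0.51, Plxna3 at -0.11, Plxnb1 at 0.71, Plxnb2 at -0.98 (adjusted p = 0.00091, and -1.02 and called without the first p13 array), Plxnc1 at -0.22 and Plxnd1 at -0.03.

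Ephb1, a receptor for B-type ephrins (probe at chr9:101824549-101824608, mm9), was higher than in MEF. It read 0.65 and 0.10 on the p13 arrays and 0.10 on the p5 array, against 0.86 in NPC and -6.63 in MEF, where it was not well above background. The difference was 6.91 (SE 0.32, adjusted p = 2.13e-05), or at least 23.9-fold. None of the other EphB receptors was called higher than in MEF. Ephb6, which lacks kinase activity, read -0.28, -0.05 and -0.35, against -0.35 in NPC and 1.18 in MEF, and was lower than in MEF at -1.41 (SE 0.21, adjusted p = 0.00199). Ephb3 differed by 0.81, Ephb2 by -0.87 and Ephb4 by -0.91, each under 2-fold. In the deposited quantile-normalised table Ephb3 was called, at 1.06.

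No EphA receptor was higher than in MEF at its representing probe, and 4 of 6 were lower. Epha3, a receptor of A-type ephrins also known in mesenchyme (probe at chr16:63545155-63545214, mm9), read -1.66 and -1.83 on the p13 arrays and -1.16 on the p5 array, against -3.84 in NPC and 1.68 in MEF. It was lower than in MEF by -3.23 (SE 0.35, adjusted p = 0.000491) and higher than in NPC by 2.29 (SE 0.35, adjusted p = 0.0114), or 4.89-fold. Epha1, best known in epithelium (probe at chr6:42308583-42308642, mm9), read -2.47, -1.80 and -2.14, against -5.32 in NPC, not well above background, and -0.67 in MEF. It stood at -1.47 against MEF (SE 0.45, adjusted p = 0.0344) and 3.18 against NPC (SE 0.45, adjusted p = 0.00804), at least 4.64-fold over NPC. Epha1 lost its call against MEF in 4 of 10 alternatives, among them with the first p13 array left out, at -1.30. Epha4, which binds both classes of ephrin, read -2.78, -3.70 and -2.52, against -3.52 in NPC and -0.56 in MEF, a difference of -2.44 from MEF (SE 0.58, adjusted p = 0.0126). The lowest of these ciNPC values was not well above background. Epha7 read -2.24, -1.69 and -1.53, against -2.95 in NPC and -0.63 in MEF. Its call was marginal (-1.19, SE 0.40, adjusted p = 0.0451) and lost in 7 of 11 alternatives, among them at -0.98 with the first p13 array left out. Epha2, an epithelial receptor, differed from MEF by 0.38, and Epha5 by 0.99, just under 2-fold (adjusted p = 0.00237), or 1.09 and called without the p5 array. Epha5 was also called at 1.20 in the deposited quantile-normalised table and at 4.16 with the mean of its probes. With the percentile taken over probes detected on every array it was called at 1.12.

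Of the A-type ephrins, which a lipid anchor holds on the cell, 2 of 5 were lower than in MEF. Efna5, a ligand that sorts retinal axons (probe at chr17:62954177-62954236, mm9), read 0.03 and 0.10 on the p13 arrays and 0.63 on the p5 array, against -1.83 in NPC and 1.92 in MEF. All 3 ciNPC values lay between the other cells, at -1.67 from MEF (SE 0.28, adjusted p = 0.003) and 2.08 from NPC (SE 0.28, adjusted p = 0.00598), 4.23-fold over NPC. Efna1, a ligand well known in endothelium, read -2.83, -2.49 and -2.10, against -2.76 in NPC and 0.42 in MEF, a difference of -2.90 from MEF (SE 0.41, adjusted p = 0.0014) with no call against NPC (0.28). Efna2, Efna3 and Efna4 were not called against MEF, at 0.57, -0.62 and -0.73.

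The B-type ephrins, which cross the membrane and signal through their own tails, were all called against MEF, in opposite directions. Efnb3, a midline barrier for corticospinal axons, read -1.35, -1.31 and -0.89 in p13 and p5 ciNPC, against -0.67 in NPC and -2.95 in MEF, a difference of 1.76 from MEF (SE 0.32, adjusted p = 0.00445). Efnb1, known for its part in craniofacial patterning, read 2.99, 2.86 and 3.06, against 2.49 in NPC and 4.87 in MEF, a difference of -1.90 (SE 0.14, adjusted p = 9.69e-05). Efnb2, an arterial marker and Ephb4 ligand, read 1.30, 1.01 and 1.74, against 0.54 in NPC and 2.92 in MEF, a difference of -1.57 (SE 0.27, adjusted p = 0.00364). Both Efnb1 and Efnb2 had ciNPC values slightly over NPC, by 0.48 and 0.81, and were not called there.

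The Slits, secreted repellents that keep axons from the midline, showed wide gaps between the cell types. Slit3, the Slit most known outside the nervous system (probe at chr11:35521559-35521618, mm9), read -1.34 and -0.83 on the p13 arrays and -1.05 on the p5 array. It read -6.56 in NPC, not well above background, and 3.28 in MEF. Slit3 was 20.4-fold lower than in MEF (-4.35, SE 0.31, adjusted p = 9.69e-05) and at least 9.69-fold higher than in NPC (5.49, SE 0.31, adjusted p = 9.67e-05). Slit2 (probe at chr5:48696673-48696732, mm9) read 0.27, 0.32 and 0.72, against -3.52 in NPC and 2.14 in MEF. It was 3.26-fold lower than in MEF (-1.71, SE 0.25, adjusted p = 0.00165) and 15.5-fold higher than in NPC (3.95, SE 0.25, adjusted p = 0.000148). Neither Slit overlapped MEF or NPC on any ciNPC array. Slit1, the Slit most restricted to the nervous system, read -1.19, -1.52 and -1.78, against -1.26 in NPC and -2.49 in MEF, and was not called (0.99 from MEF, SE 0.35, adjusted p = 0.0567). It was called in 2 alternatives, at 1.13 without the p5 array and at 1.12 with the percentile taken over probes detected on every array.

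Among the Robos, which are the Slit receptors, Robo2 was higher than in MEF. It read -1.53, -1.65 and -1.83 on the p13 and p5 arrays, against -1.42 in NPC and -4.04 in MEF, a difference of 2.37 (SE 0.36, adjusted p = 0.00203). A further Robo2 probe differed by 1.21 and was not called (adjusted p = 0.093). Robo1 differed by 0.28 from MEF, and Robo3, the divergent commissural receptor, by 0.93.

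Ntn1, the netrin that attracts commissural axons to the floor plate (probe at chr11:68022986-68023045, mm9), read 1.66 and 1.32 on the p13 arrays and 1.30 on the p5 array, against 1.83 in NPC and -2.15 in MEF. It was 11.9-fold higher than in MEF (3.58, SE 0.21, adjusted p = 4.55e-05), and its other probe gave 3.44, at least 10-fold. The other netrins were not called: Ntn3 differed by 0.61 and Ntn4, a netrin of basement membranes, by 0.79. Ntn5 was above background on the p5 array alone, with a difference of 2.77 (SE 1.17) that was not called, and 2.99 and called without the second p13 array.

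The Unc5 receptors, which turn netrin into a repellent, were divided. Unc5a, known mainly from neural tissue, read 1.06, 1.19 and 1.26 in p13 and p5 ciNPC, against 1.47 in NPC and -0.51 in MEF, a difference of 1.68 from MEF (SE 0.17, adjusted p = 0.000399). Unc5b, also known in vessels (probe at chr10:60225398-60225457, mm9), read 3.26, 3.02 and 3.61, against 1.64 in NPC and 5.61 in MEF. It was lower than in MEF at -2.31 (SE 0.22, adjusted p = 0.000305) and higher than in NPC at 1.65 (SE 0.22, adjusted p = 0.00604), or 3.15-fold. Unc5c (probe at chr3:141497142-141497201, mm9) read -1.84, -1.53 and -1.25, against -4.45 in NPC, not well above background, and -0.43 in MEF. Its difference from NPC was 2.91 (SE 0.38, adjusted p = 0.00492), at least 7.02-fold, and its second probe gave 3.91, at least 5.40-fold. Against MEF the call of Unc5c was marginal (-1.11, SE 0.38, adjusted p = 0.0479), ended in 8 of 10 alternatives, among them without the first p13 array (-0.96) and without the second (-1.11, adjusted p = 0.0545), and its second probe differed by 0.05. Unc50, which shares only the spelling, differed from MEF by 0.68.

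Dcc, the receptor for netrin attraction, has no settled direction here. Its brightest probe read 6.46, 6.30 and 6.33 on the p13 and p5 arrays, against 6.52 in NPC and 7.48 in MEF, and is the Dcc call in the counts above (-1.12, SE 0.13, adjusted p = 0.00058). The files place that probe at chr7:68417162-68417221 (mm9), while the gene and its other probes lie on chromosome 18. On chromosome 18, the probe above background on the most arrays read -2.31, -1.82 and -3.40, against -3.46 in NPC and -4.77 in MEF, where it was not well above background. With probes placed on another chromosome left out, Dcc differed by 2.26 (adjusted p = 0.0411), at least 3.45-fold higher than in MEF, and the counts against MEF became 12 higher and 19 lower. With every probe fitted on its own, the same difference had an adjusted p of 0.0575 and was not called.

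**Figure D3:**
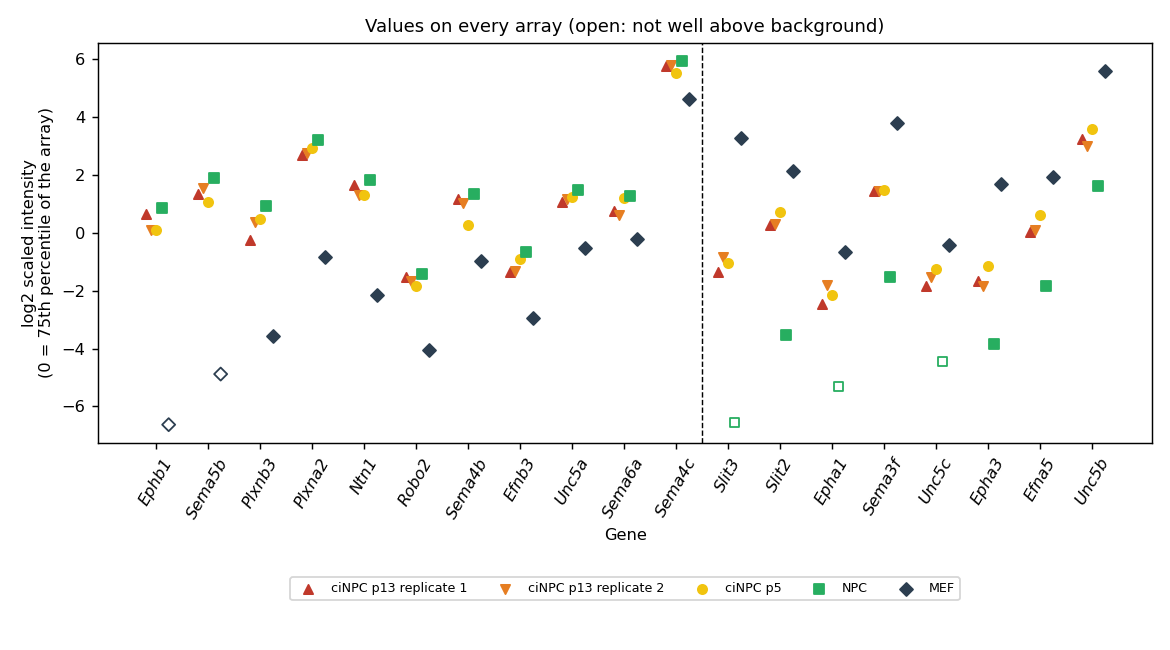
The log2 scaled intensity (vertical axis) is shown on each of the 5 arrays for the 11 genes higher than MEF, left of the dashed line, and the 8 genes between the cell types, right of it. Open symbols were not well above background. On the left the 3 ciNPC arrays and NPC lie together above MEF, and on the right the ciNPC arrays lie between MEF and NPC, as for Slit2 at 0.27, 0.32 and 0.72 against -3.52 in NPC and 2.14 in MEF.

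All 11 genes higher than MEF read slightly lower in ciNPC than in NPC, by a median log2 difference of -0.43 (lowest -0.73 for Plxnb3, highest -0.25), and none was called. Over the whole array, 88.7% of the 2484 genes higher than MEF also read below NPC, with a median of -0.33. The 12 genes lower than MEF and not called against NPC had differences from NPC between -0.23 and 1.87, with a median of 0.38.

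Markers of fibroblasts also lay between the cell types, as the 8 genes did. All 12 fibroblast markers examined were higher in ciNPC than in NPC and 10 were lower than in MEF. Their summed scaled intensity was 204 and 189 on the p13 arrays and 260 on the p5 array, against 2.89 in NPC and 1760 in MEF. Postn and Col3a1, matrix genes of fibroblasts, differed from MEF by -5.08 and -4.71 and from NPC by 7.96 and 5.57. The smooth muscle and pericyte markers summed to 152, 152 and 194, against 0.151 in NPC and 861 in MEF, with 4 of 6 higher than in NPC and 3 of 6 lower than in MEF. Neural progenitor markers summed to 657, 608 and 539, against 749 in NPC and 253 in MEF, with 11 of 12 higher than in MEF and 0 called against NPC (limma), where 5 had an unadjusted p under 0.05. The brightest probes weigh most in all these sums. Vim, not called against MEF, read 7.87 in MEF, while the median difference of the 12 markers from MEF was 5.07. Among the other types, neuronal markers summed to 25.8, 23.1 and 25.3, against 31.7 in NPC and 49.6 in MEF, where Snap25 alone read 5.39. The median difference of the neuronal markers tested from MEF was 2.64. Of 9 neuronal markers tested, 5 were higher than in MEF, among them Map2 (5.97), Syt1 (6.55) and Rbfox3 (6.81, not well above background in MEF). The 2 that were lower were Tubb3 and Snap25. Tubb3 and Stmn2 were higher than in NPC, where Stmn2 was not well above background. Oligodendrocyte lineage markers summed to 80.7, 79 and 62, against 103 in NPC and 18 in MEF. Olig1, the brightest of them in ciNPC and NPC, read 6.15, 6.12 and 5.73, and 6.56 in NPC. Of these 9 markers, Olig1 was higher than in MEF, where it was not well above background, and Cspg4 lower (-1.21). Mbp, not well above background in NPC, and Pdgfra (2.24) were higher than in NPC. Astrocyte markers summed to 8.26, 6.71 and 7.07, against 8.64 in NPC and 1.79 in MEF, with 2 of 5 higher than in MEF. Endothelial markers summed to 6.47, 7.20 and 4.44, against 6.78 in NPC and 16.9 in MEF, with Cdh5 and Tek above background on no array. The brightest, Kdr, read 4.04 in MEF and was called lower in ciNPC (-1.58). Macrophage markers summed to 2.39, 2.61 and 1.74, against 1.81 in NPC and 3.78 in MEF, and Ptprc was above background on no array. Of 5 macrophage markers tested, Adgre1, Aif1 and Tyrobp were higher than in NPC, where they were not well above background, and Csf1r was lower than in MEF (-1.04). In these bulk samples, fewer cells of a type and less RNA per cell cannot be told apart, and the part of fibroblast, smooth muscle or macrophage RNA in the 8 genes was not tested.

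**Figure D4:**
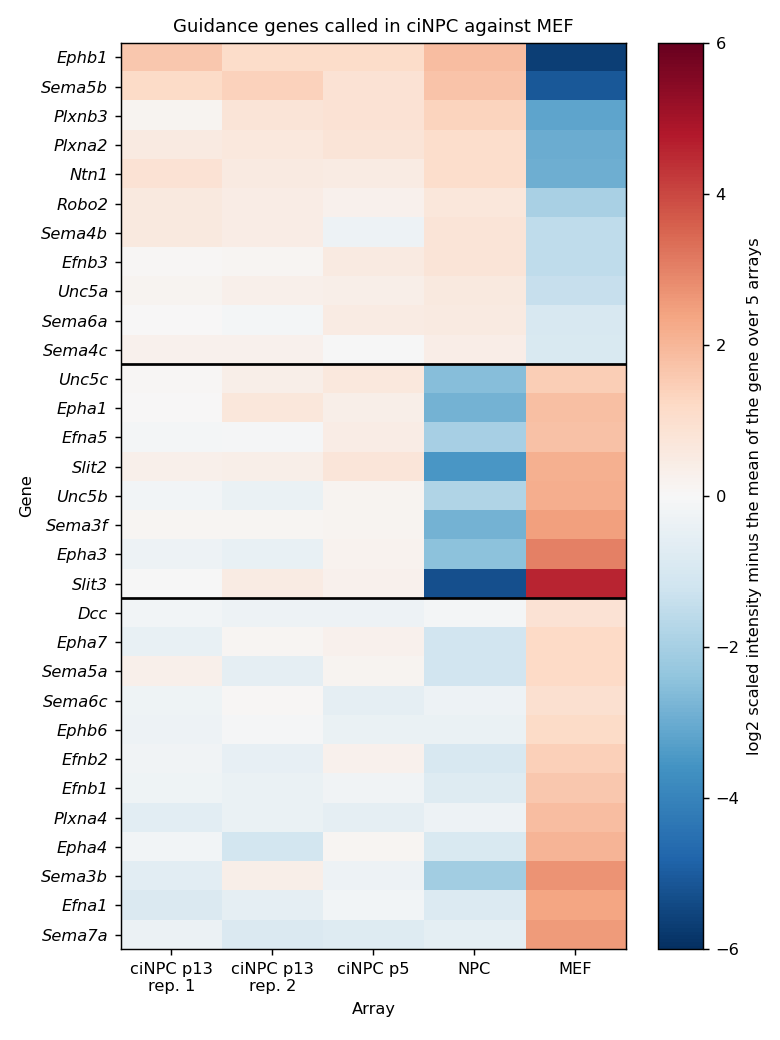
Rows are the 31 genes called against MEF and columns the 5 arrays, with colour for the log2 scaled intensity minus the mean of the gene over the arrays. Black lines separate the 11 genes higher than MEF, the 8 between the cell types and the 12 lower than MEF only. Dcc, among the last, is drawn at its probe placed on chromosome 7. The ciNPC and NPC columns share their colour in the top block, and in the middle block NPC is blue, MEF red and the ciNPC columns pale.

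Between passages, 0 of the 62 guidance genes were called in p13 against p5, beside 0.425% of all genes higher and 0.21% lower, 0.635% in all (limma). Their differences ran between -1.48 and 1.38 with a median of -0.01, and for the 50 genes above background on all arrays between -0.59 and 0.81. At an unadjusted p under 0.05, 16 of the 62 (25.8%) differed, beside 22.4% of all genes. For 5 genes (8.06%, beside 5.37% of all genes) the adjusted p was under 0.05 and the change under 2-fold. Sema4b was higher at p13 by 0.81 (adjusted p = 0.015), Plxna1 by 0.71 (adjusted p = 0.0319) and Plxnd1 by 0.47 (adjusted p = 0.0389). Efnb2 was lower at p13 by a log2 difference of -0.59 (adjusted p = 0.0356) and Unc5b by -0.47 (adjusted p = 0.0362). Plxna1, a co-receptor for class 3 semaphorins, read 0.37 and 0.26 at p13, against -0.40 at p5, with 0.29 in NPC and 0.59 in MEF. Plxnd1, an endothelial receptor of Sema3e, read 3.31 and 3.06 at p13, against 2.71 at p5. The 8 genes between the cell types differed between passages by -0.58 to 0.00, Epha3 being lowest and Epha1 highest. The p13 arrays gave the fit 1 residual degree of freedom and p5 had 1 array.

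NPC and MEF had 1 array each and were compared by size alone, at 4-fold after values below the lowest measured signal were raised to it. By this rule 8 of the 62 guidance genes (12.9%) were higher in NPC, beside 8.01% of all genes, and 17 (27.4%) were lower, beside 10.1%, with 18.1% of all genes past 4-fold in either direction. The median difference was -0.40 over the 62 genes and -0.03 over all genes. The 8 were Ephb1, Sema5b, Plxnb3, Plxna2, Ntn1, Robo2, Sema4b and Efnb3. Among the genes lower in NPC, the gap was at least 198-fold for Slit3, 50.6-fold for Slit2, 45.9-fold for Epha3, 40.4-fold for Sema3f and 26.9-fold for Sema3b. Of these 17 genes, 8 (47.1%) were called higher in ciNPC than in NPC, beside 42.9% of all genes that were 4-fold lower in NPC.

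Several calls depended on the probe. Of the 69 genes, 19 had more than 1 probe and 15 had more than 1 tested. Over 35609 probes fitted singly, every tested probe gave the same call against MEF in 7 of these 15. In 8 the calls differed, and in 0 did they oppose each other. The tested probes of Dcc still went in opposite directions, at -1.12 and at 2.26, the second not called (limma, adjusted p = 0.0575). Of the 7, Ntn1 and Sema5b were higher at both tested probes, while Epha7, Ephb4, Plxnc1, Sema3c and Unc5c were called at neither. In this fit the representing probes of Epha1, Epha7 and Unc5c were not called (limma, adjusted p = 0.0532, 0.0658 and 0.0717), unlike in the fit by gene. The widest gap was in Epha5, a receptor for ephrin-A5 in retinal and hippocampal maps. Its dimmer probe, at chr5:84483837-84483896 (mm9), read 0.74 and 0.53 on the p13 arrays and 1.04 on the p5 array, against 1.14 in NPC and -6.56 in MEF, where it was not well above background. That probe differed from MEF by 7.33 (SE 0.28, adjusted p = 1.56e-05), at least 33.5-fold, while the brighter one at chr5:84487348-84487407 differed by 0.99. Sema6d likewise differed by 3.31 at its dimmer probe (SE 0.34, adjusted p = 0.000564) and by 0.99 at the brighter. Plxnd1 differed by -1.14 (adjusted p = 0.0143) at the dimmer probe and -0.03 at the brighter, and Sema3a by 1.15 (adjusted p = 0.0261) and 0.61. For Efnb2 and Ephb6 the dimmer probes, at 0.58 and -0.45, were not called, unlike the brighter ones. Which transcripts each probe detects was not tested.

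**Figure D5:**
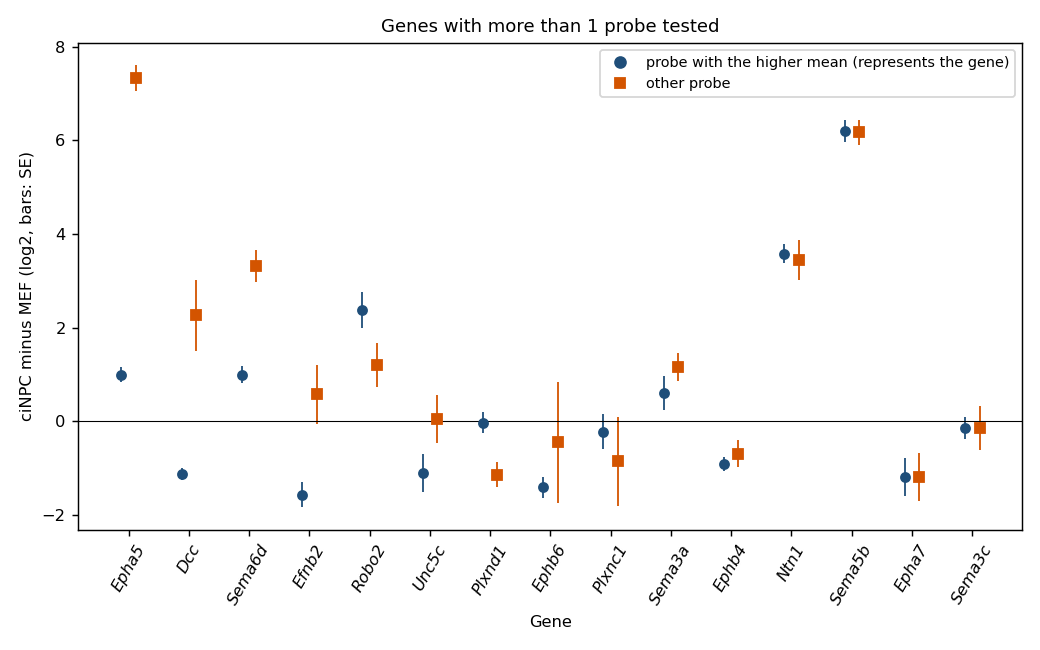
For the 15 guidance genes with more than 1 probe tested, each probe's log2 difference of ciNPC from MEF (vertical axis) is drawn with its SE. Blue circles are the probes that represent the genes and orange squares the others. The 2 probes of Epha5 lie at 0.99 and 7.33, those of Sema5b at 6.20 and 6.17.

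Other genes of the same signalling, from a list of 75 co-receptors, adhesion partners and signal carriers, were also examined. Of 73 tested, 17 (23.3%) were higher than in MEF and 14 (19.2%) lower, beside 15.3% of all genes each way, with a median of -0.14. Vav3, an exchange factor downstream of Eph receptors, was at least 78.6-fold higher than in MEF (7.60, SE 0.22, adjusted p = 4.6e-06), and the growth cone protein Gap43 6.90 higher on the log2 scale (SE 0.15, adjusted p = 1.33e-06). Grip1, which binds the tails of ephrin-B ligands, differed by 5.76, at least 32.2-fold, and Nrcam, an adhesion partner of neuropilins, by 5.15. Among those lower, Fes, a kinase that plexins engage, differed from MEF by -3.35, Farp2 by -2.21, Nrp1 by -2.16 and Farp1 by -2.02.

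Against NPC, 4 of the 73 (5.48%, beside 4.79% of all genes) were higher and 0 lower (limma), namely Nrp1, Fes, Flrt2 and Rnd1. At an unadjusted p under 0.05 there were 17 (23.3%), beside 18.1% of all genes. The neuropilins are the co-receptors for the class 3 semaphorins described above. Nrp1 read -1.06, -1.02 and -0.77 on the p13 and p5 arrays, against -2.58 in NPC and 1.21 in MEF, and was 1.63 above NPC (SE 0.26, adjusted p = 0.0129). Nrp2 read 2.80, 2.66 and 3.29, against 2.37 in NPC and 4.32 in MEF, a difference of -1.40 from MEF and 0.55 from NPC, the second not called. Fes stood 2.32 above NPC (adjusted p = 0.00468), Flrt2, a ligand of Unc5 receptors, 3.17 (adjusted p = 0.00142), and Rnd1, a plexin-binding GTPase, 1.89 (adjusted p = 0.00321). Flrt2 and Rnd1 were not called against MEF, at -0.13 and 0.30. In p13 against p5, 0 of the 73 were called in either direction (limma), and 21 (28.8%) had an unadjusted p under 0.05, beside 22.4% of all genes.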

How the data were processed

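Total RNA labelled with Cy3 was hybridised to 5 one-colour Agilent arrays. Processed intensities were background-subtracted within each array by the authors with Agilent Feature Extraction 10.7.1.1, per the file headers and the submitters' processing notes. Flags for spots well above background were taken from the deposited scanner output. A deposited table of log2 values, whose columns share 1 distribution, served as an alternative, and no label states how it was made (0 of its value columns went unused).

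Intensities were scaled to each array's 75th percentile, put on a log2 scale, averaged over spots of a probe, and reduced to 1 probe a gene, the one with the highest mean. Genes that all arrays of some group measured above background were tested with limma 3.58.1 (R 4.3.3), with an intensity trend. ciNPC was 1 group of 3 arrays against MEF and NPC (2 residual degrees of freedom), and p13 was set against p5 in a second fit. The script was tested on simulated data. Probe positions are those of the files (mm9). Promoters and updated symbols came from RefSeq's GRCm38.p6 tables, which named 29676 of the 55681 probes. The other 26005 had no symbol there and were left out of the fits by gene and of the shares of all genes. Alternatives covered the scaling, background correction, probe choice, filter on dim probes, prior and each ciNPC array left out.

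The genes and lists were chosen with earlier results of these data known. Every guidance gene is named, with values on every array for those called. Of the 75 other genes of the same signalling, up to 4 called in each direction of a comparison are named, those with the largest differences. Marker genes are named as examples and are not always those with the largest called differences. Nrp2, Flrt2, Rnd1, Plxna1 and Plxnd1, and some marker genes (those at background, Tubb3, Snap25, Stmn2, Vim), were named after their values were seen. The number of arrays limits the precision.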

Additional observations from a re-analysis of the deposited data

How the results depend on the processing

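With 1 MEF and 1 NPC array, no spread within those cells was measured, and signals near background limit the dim genes. Of the 31 calls against MEF, 18 were kept in every alternative that could be run and 13 were lost or reversed in at least 1; of the 8 against NPC, 4 were kept and 4 were lost in at least 1. Dcc reversed against MEF, to 0.75 with the mean of all probes of a gene and to 2.26 with probes placed on another chromosome left out. The 8 genes higher than NPC became 5 with genes above background on all 5 arrays only, by construction without Epha1, Slit3 and Unc5c, and 5 with no intensity trend in the prior, without Efna5, Epha3 and Unc5b. The deposited log2 table gave 6, without Epha3 and Unc5c. In p13 against p5, Ephb6 was called higher (1 gene in place of 0) with the mean of all probes. With 1 ciNPC array left out, genes higher than MEF numbered 11 to 13, those lower 18 to 20, those higher than NPC 9 to 11 and those lower 0 to 0. With no filter, the median of all genes against MEF moved to 0.25, against -0.09. The causes of the other changes were not tested.

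The alternative without probes on another chromosome, and the fit of every probe on its own, were chosen after seeing the data. Slide as a block was not run, since it could not be fitted where each slide held different cell types. Leaving out a p13 array leaves p13 against p5 with no residual degrees of freedom, and no test was run. No paired analysis was possible because the groups share fewer than 2 replicate numbers.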
